A study of Rattus norvegicus with 2 samples.

Results

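Chad, Snorc, Cytl1, Cnmd, Clec3a, Ucma, Mia and Cilp are 8 genes for secreted, matrix or membrane proteins that are known chiefly from cartilage, and they were described here in single cells of rat cartilage. The 8 were taken by symbol from the 18147 genes listed for both libraries, and all 8 were present. They had been chosen by their measured restriction to Col2a1-rich cells in earlier results of these data, so that restriction and their levels by library are descriptions with no test. The study made 2 single-cell RNA libraries from cartilage of Lewis rats, 1 from an untreated animal group (called control in the sample title and sham in the series description) and 1 from rats with collagen-induced arthritis (CIA), given type II collagen with complete Freund's adjuvant ahead of collection on day 14. Collagen-induced arthritis is a standard rodent model in which immunity to type II collagen inflames the joints. The labels give neither age, sex nor the number of rats per library, and a pool of animals was not stated. With 1 library per group, every difference below is between 2 libraries, and it has no replicate check.

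Chondrocytes make the collagen II and aggrecan matrix of cartilage and live in it without blood vessels. Beside these bulk components they make smaller sets of proteins that sit on the cell surface, tie the cell to the matrix or keep vessels and mineral out. Snorc is a transmembrane chondroitin sulfate proteoglycan of chondrocytes, and Cnmd (chondromodulin) is a membrane protein whose shed ectodomain inhibits the growth of endothelial cells. Chad (chondroadherin) is a leucine-rich matrix protein that binds collagen and integrins, Clec3a is a secreted C-type lectin, and Cilp (cartilage intermediate layer protein) is a large matrix glycoprotein. Cytl1 is a secreted cytokine-like protein, Mia (also called CD-RAP) is a small secreted protein with an SH3-like fold, and Ucma (Gla-rich protein) is a small secreted protein with vitamin K-dependent Gla residues that bind calcium. The Ensembl identifiers in the files are ENSRNOG00000003304 for Chad, ENSRNOG00000016606 for Snorc, ENSRNOG00000028108 for Cytl1, ENSRNOG00000012821 for Cnmd, ENSRNOG00000012238 for Clec3a, ENSRNOG00000017987 for Ucma, ENSRNOG00000001499 for Mia and ENSRNOG00000029911 for Cilp.

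RefSeq promoter sequences (build GRCr8, while the authors' files were made on mRatBN7.2) matched 5 of the 8 genes: Chad, Cytl1, Ucma, Mia and Cilp. The 250 bases before the start are shown for 3 genes that part ways in the results: Chad and Mia, which were lower in the CIA library, and Ucma, which was not. Capitals in the Chad stretch mark the TATA box letters TATAAA, searched on both strands. Capitals in the Ucma stretch mark the AP-1 letters TGACTCA, also searched on both strands. The core letters bound by SOX factors, ACAAT, were searched in the same way, and the motifs do not overlap. These letters were picked after the sequences had been read.
Chad, chr10:80008795-80009044, plus strand: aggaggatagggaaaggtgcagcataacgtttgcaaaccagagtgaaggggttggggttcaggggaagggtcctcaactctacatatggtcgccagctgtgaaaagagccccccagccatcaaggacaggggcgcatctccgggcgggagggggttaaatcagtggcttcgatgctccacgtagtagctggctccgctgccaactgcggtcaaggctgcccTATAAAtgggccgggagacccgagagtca
Mia, chr1:91603020-91603269, minus strand: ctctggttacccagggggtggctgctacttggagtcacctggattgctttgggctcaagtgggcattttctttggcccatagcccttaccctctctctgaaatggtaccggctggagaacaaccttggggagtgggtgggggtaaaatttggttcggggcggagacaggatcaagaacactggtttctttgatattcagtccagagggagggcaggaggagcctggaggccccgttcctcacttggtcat
Ucma, chr17:78212997-78213246, minus strand: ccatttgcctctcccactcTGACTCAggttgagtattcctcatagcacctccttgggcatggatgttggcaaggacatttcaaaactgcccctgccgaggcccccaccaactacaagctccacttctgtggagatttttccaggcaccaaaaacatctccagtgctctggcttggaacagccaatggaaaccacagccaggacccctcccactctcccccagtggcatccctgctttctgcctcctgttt
TATAAA occurred 1 time upstream of Chad and in none of the other 4 matched genes, and 12.9% of 33469 rat promoter stretches of this length hold it. TGACTCA occurred 1 time upstream of Ucma and in none of the other 4, against 4.05% of all stretches. ACAAT was in none of the 5 windows, against 30.0% of all. The GC content was 58.4% for Chad, 56.4% for Cytl1, 55.2% for Mia, 54.4% for Ucma and 52.0% for Cilp, with a median of 51.2% over all stretches. A match is a description of letters and not of binding.

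The control library had 76927821 unique molecular identifiers (UMIs, each a counted RNA molecule) in 5456 cells and the CIA library 105752977 in 8622, with medians of 11873 and 10541 UMIs per cell. After cells with over 20% mitochondrial UMIs and called doublets were left out, 5349 control and 8409 CIA cells were kept, and 49 kept barcodes occurred in both libraries. A cell was called Col2a1-high when Col2a1, which encodes the main cartilage collagen, was at or above 1000 UMIs per 1000000 (CPM). This held for 343 control cells (6.41%, exact 95% interval 5.77 to 7.10) and 44 CIA cells (0.523%, 0.380 to 0.702), with median depths of 8934 and 9561 UMIs. The 11 chondrocyte markers include Col2a1, which defined the cells, so its own detection was fixed in advance. Of these 11 markers, 10 were found in most control Col2a1-high cells and 8 in most CIA ones. Of 8 endothelial markers, 0 were. By the same count, 4 of 8 fibroblast markers and 3 of 10 macrophage markers were found in most Col2a1-high cells of each library. Of 7 osteoblast markers, 0 were, but their UMIs reached 11.2% of a control cell and 2.36% of a CIA cell. In clusters made without the 8 genes, 331 of the 343 control cells and 34 of the 44 CIA cells lay in the chondrocyte-like cluster. Of the remaining CIA cells, 7 lay in a lining or superficial zone-like cluster and 3 in a proliferating-like cluster. UMIs of macrophage markers made up a median of 0.0990% of a control cell and 0.172% of a CIA cell, with highest values of 5.16% and 7.11%. Fibroblast marker UMIs made up a median of 0.477% and 1.91%, with highest values of 35.8% and 26.4%. Without the 4 control cells and 1 CIA cell over 1% macrophage marker UMIs, the log2 ratio of Chad between the libraries, given below, was -2.70 in place of -2.76; the part of the fibroblast markers as a list was not tested. All intervals cover counting error only, and levels are per UMI count and not per transcript length, so they are compared between libraries and cells but not between genes.

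In the control library most Col2a1-high cells held RNA of most of the 8 genes. Of the membrane proteins, Snorc was found in nearly all of them and Cnmd in a minority. A UMI of Snorc was in 325 of 343 cells (94.8%, 91.8 to 96.9), and the level ran from 0 through a median of 6490 to 21050 CPM. Snorc RNA was thus a general feature of these cells, and 291 of them (84.8%) were at or above 1000 CPM. A UMI of Cnmd was in 104 cells (30.3%, 25.5 to 35.5), with a median of 0 and a highest value of 10490 CPM. Only 21 cells (6.12%) reached 1000 CPM of Cnmd, and in endothelial-like cells, which should lack the gene, 1.37% of 655 cells had a UMI.

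The matrix proteins Chad and Clec3a were about as widespread as Snorc, and Cilp was less so. Chad was in 323 control cells (94.2%, 91.1 to 96.4), from 0 through a median of 9740 to 57370 CPM. The middle 50% of cells ran from 2330 to 20400 CPM of Chad, a wide spread within cells that share the Col2a1 criterion. Clec3a was in 328 cells (95.6%, 92.9 to 97.5), from 0 through 2880 to 14090 CPM. Cilp was in 189 cells (55.1%, 49.7 to 60.4), from 0 through a median of 98.8 to 22180 CPM. For Cilp, 121 cells (35.3%) stood at or above 1000 CPM.

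Of the small secreted proteins, Ucma was the most widespread in control cells, followed by Mia and then Cytl1. Ucma was in 300 cells (87.5%, 83.5 to 90.8), from 0 through 1480 to 10070 CPM. Mia was in 270 cells (78.7%, 74.0 to 82.9), from 0 through 681 to 4360 CPM. Cytl1 was in 233 cells (67.9%, 62.7 to 72.8), from 0 through 464 to 26790 CPM, and 142 cells (41.4%) were at or above 1000 CPM. When every cell was thinned to 4000 UMIs, the shares with a UMI were 86.6% for Chad, 91.5% for Snorc, 60.6% for Cytl1, 22.7% for Cnmd, 91.5% for Clec3a, 83.1% for Ucma, 70.6% for Mia and 47.8% for Cilp. No kept cell was shallower than that depth.

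**Figure D1:**
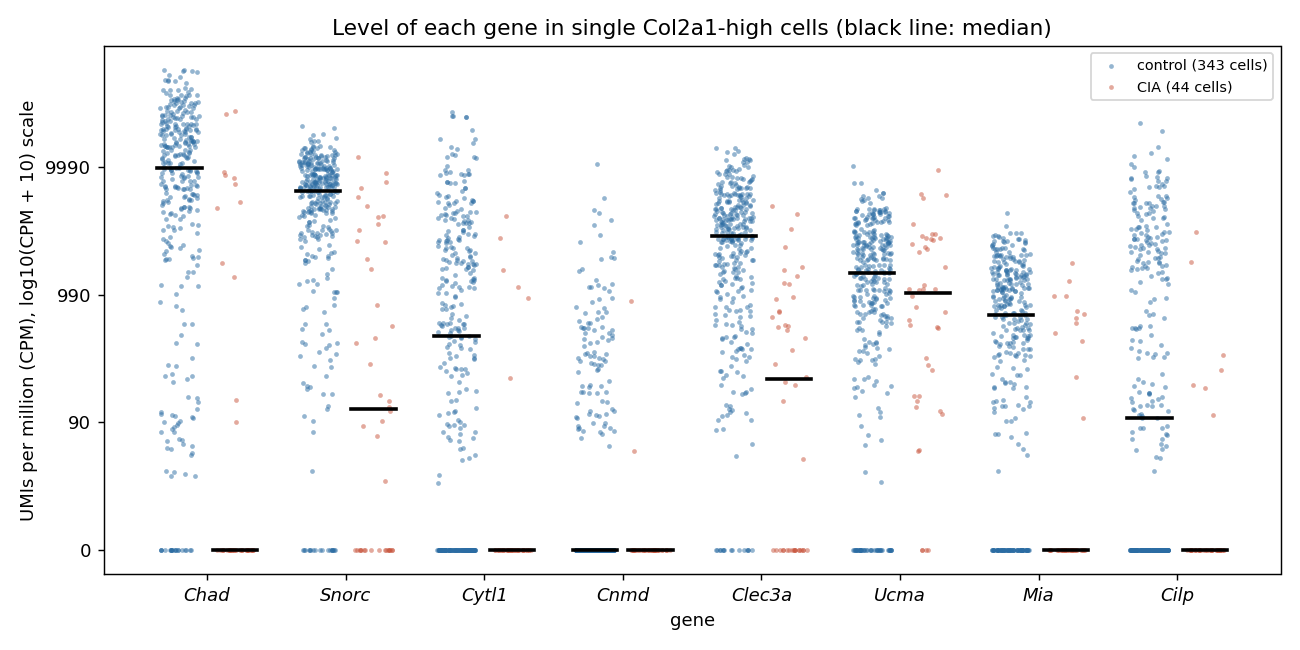
Level of the 8 genes in each Col2a1-high cell, as UMIs per 1000000 on a log10(CPM + 10) axis, for 343 control cells (blue) and 44 CIA cells (red); each point is a cell and the black line is the median. The control medians of Chad, Snorc and Clec3a lie at 9740, 6490 and 2880 CPM, while in the CIA library 5 of the 8 medians are at 0 and that of Ucma is at 1030.

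Single UMIs of these genes were also common in control cells of other types, so a UMI alone did not mark a chondrocyte in that library. A UMI of Chad was in 41.3% of the 5006 other control cells and in 42.9% (39.1 to 46.8) of the 655 endothelial-like cells, at median depths of 12116 and 11329 UMIs. For Clec3a the shares were 22.5% and 21.8%, for Snorc 13.8% and 13.9%, for Cytl1 10.8% and 13.6%, for Cilp 10.5% and 9.31%, for Mia 2.30% and 1.68% and for Cnmd 1.24% and 1.37%. Ucma was the gene whose share in other cells, 13.5% (12.5 to 14.4), lay above that in endothelial-like cells, 8.40% (6.39 to 10.8), with intervals that did not overlap. Against the 99th percentile of the endothelial-like cells, which was 301 CPM for Chad, 82.8% of control Col2a1-high cells were higher. The same share was 92.4% for Snorc, 89.8% for Clec3a, 84.3% for Ucma, 77.6% for Mia, 49.3% for Cytl1, 43.7% for Cilp and 30.3% for Cnmd.

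In the CIA library the 44 Col2a1-high cells kept Ucma, while the other 7 genes were found in smaller shares. Ucma was in 40 cells (90.9%, 78.3 to 97.5), from 0 through a median of 1030 to 9439 CPM. The Ucma share lay above that of the control library where its level did not, so no order was read from it. Of the membrane proteins, Snorc was in 27 cells (61.4%, 45.5 to 75.6), with a median of 117 and a highest value of 11910 CPM, and Cnmd was in 2 cells (4.55%, 0.555 to 15.5). Of the matrix proteins, Clec3a was in 26 cells (59.1%, 43.2 to 73.7) with a median of 208 CPM, Chad in 12 (27.3%, 15.0 to 42.8) and Cilp in 7 (15.9%, 6.64 to 30.1). Mia was in 12 cells (27.3%, 15.0 to 42.8) and Cytl1 in 6 (13.6%, 5.17 to 27.4), and the medians of Chad, Cilp, Mia, Cytl1 and Cnmd were 0. How often shares differ this much between the libraries over all genes was not counted, so the differences of these 7 genes are descriptions only. Background differed too: a Chad UMI was in 42.9% of control but 0.374% of CIA endothelial-like cells. Thinned to 4000 UMIs per cell, the CIA shares were 27.3% for Chad, 54.5% for Snorc, 13.6% for Cytl1, 0 for Cnmd, 50% for Clec3a, 79.5% for Ucma, 22.7% for Mia and 6.82% for Cilp. Outside the Col2a1-high cells, a UMI was rare in this library: 0.681% of 8365 cells for Chad, 0.514% for Snorc, 0.598% for Clec3a, 0.227% for Cytl1, 0.215% for Mia and 1.29% for Cilp, and 0 for Cnmd, for which 3 counts would be a share of 0.0359% and the exact upper limit is 0.0441%. Ucma was again apart, with a UMI in 6.92% (6.39 to 7.49) of the other CIA cells against 1.31% (0.528 to 2.68) of 535 endothelial-like cells.

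**Figure D2:**
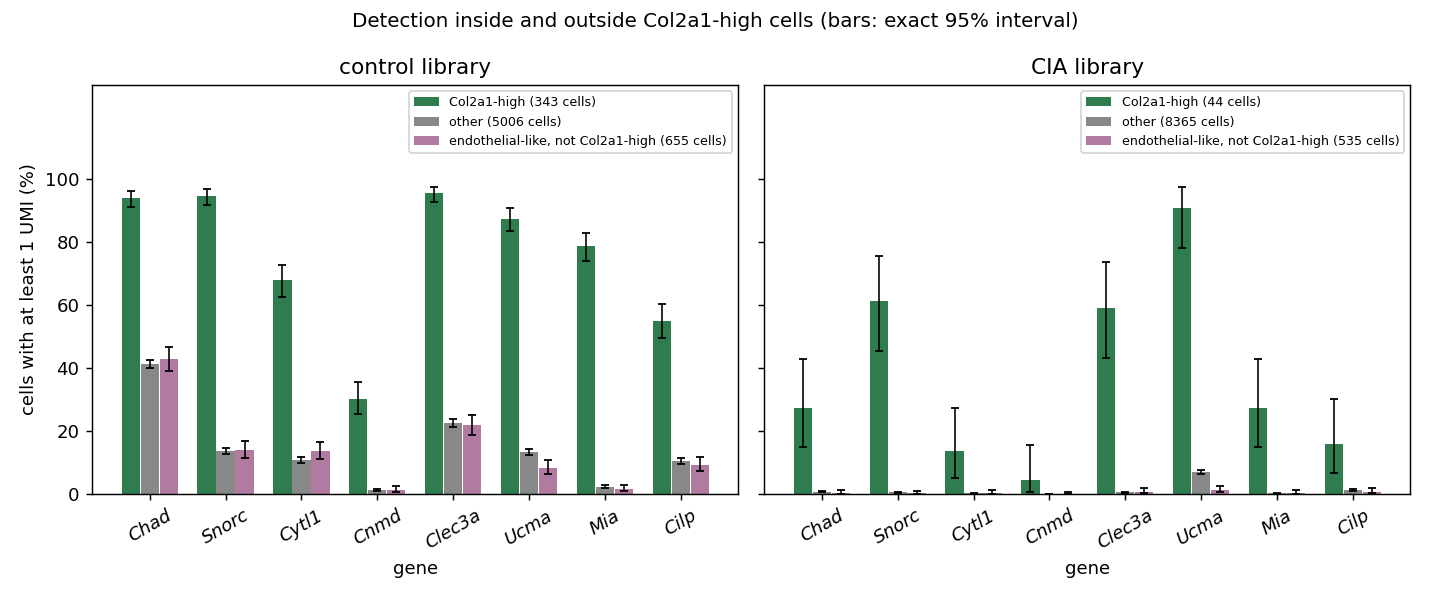
Percent of cells with at least 1 UMI of each gene in Col2a1-high cells (green), all other kept cells (grey) and endothelial-like cells (purple) of each library, with exact 95% intervals. In the control library the grey and purple bars for Chad stand at 41.3% and 42.9%; in the CIA library the tallest bar outside Col2a1-high cells is that of Ucma at 6.92%.

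The members were highest in Col2a1-high cells of both libraries, though Ucma and Cilp RNA lay mostly elsewhere in the CIA library. Beside a background of 5.44% of 11741 genes that were higher in control Col2a1-high cells than in other cells (at least 2-fold, with the interval wholly beyond 1.5-fold), all 8 were higher, as their choice had fixed. The ratio of summed CPM was 355 for Mia (302 to 420), 321 for Snorc (303 to 340), 276 for Cnmd (213 to 362), 126 for Cytl1 (117 to 134), 117 for Clec3a (111 to 123), 111 for Chad (108 to 113), 78.1 for Cilp (73.1 to 83.4) and 45.2 for Ucma (43.1 to 47.3). By that ratio Mia, Snorc and Cnmd ranked 1, 2 and 3 of the 11741 genes, and Col2a1 itself, which defined the cells, ranked 9. Aggrecan (Acan) and the chondrogenic transcription factor Sox9 had ratios of 13.8 and 19.2. In the CIA library the background was 3.76% of 11862 genes. Chad and Snorc ranked 1 and 2 there, with ratios of 1650 (1340 to 2060) and 1620 (1280 to 2100). Clec3a stood at 739, Mia at 735, Cytl1 at 264, Ucma at 71.5 and Cilp at 50.1. Cnmd, with 15 UMIs in Col2a1-high cells and 0 elsewhere, was below the minimum of 100 UMIs. Its ratio would be 974 with 3 counts assumed over the other cells, and the exact lower limit was 699.

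As a share of all UMIs of a gene, Col2a1-high control cells held 95% of Mia, 94.6% of Snorc, 93.7% of Cnmd, 87.2% of Cytl1, 86.3% of Clec3a, 85.7% of Chad, 80.8% of Cilp and 70.9% of Ucma. In the CIA library they held 89.4% of Chad, 89.3% of Snorc, 79.1% of Clec3a, 79.0% of Mia and 57.6% of Cytl1. They held 26.9% of Ucma and 20.5% of Cilp there, so a name that calls all 8 restricted to chondrocytes did not describe these 2 genes in the CIA library. The Col2a1-high cells were 0.523% of CIA cells, a number that enters these shares.

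Cells near the Col2a1 limit differed between libraries. In the control library 71 cells lay between 500 and 1000 CPM of Col2a1 and 32 between 1000 and 2000, and Chad was in 35.2% of the former and 90.6% of the latter. In the CIA library Chad was in 0 of 21 cells just under the limit and 0 of 10 just over it, while Ucma was in 95.2% and 90%. Cells of the chondrocyte-like cluster below the limit numbered 108 in the control library, with 2910 CPM of Chad and 653 CPM of Ucma. The 42 such CIA cells had 93.0 CPM of Chad and 698 CPM of Ucma. The values of both genes rest on few cells. For Chad, 26 control cells with 10 or more UMIs held 97.9% of it and 1 CIA cell 55.6%. Without such cells Chad stood at 73.1 and 42.1 CPM. For Ucma, 24 control cells with 10 or more UMIs held 85.2% and 7 CIA cells 71.5%. Leaving these out, Ucma stood at 135 (control) and 263 CPM (CIA), so its near equality depended on them.

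The 8 genes overlapped widely in control cells without forming 1 block. A control Col2a1-high cell had UMIs of a median of 6 of the 8 genes (middle 50% of cells 5 to 7), 49 cells had all 8 and 2 had none. At least 6 genes were found in 245 cells (71.4%, 66.3 to 76.2). Counting a gene only above the 99th percentile of endothelial-like cells of the same library, 193 control cells (56.3%, 50.8 to 61.6) had at least 6. A CIA cell had a median of 2, and 6 of 44 cells (13.6%, 5.17 to 27.4) had at least 6, by either count. No CIA cell had all 8, and 13 had a single member.

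Across the 343 control cells, thinned to 4000 UMIs, the strongest Spearman correlation was that of Snorc with Mia, at 0.63. It was followed by Chad with Clec3a at 0.59, Cytl1 with Cilp at 0.49 and Chad with Cytl1 at 0.48. Correlations near 0 were those of Snorc with Cilp (0.03), Mia with Cilp (0.05), Clec3a with Ucma (0.09) and Cnmd with Ucma (-0.03). These values describe cells of 1 library that share depth and free RNA, and the per-cell CPM of Chad, Snorc and Cilp correlated with the cell's total UMIs at -0.40, -0.35 and -0.34. The pairs also showed in plain counts. All 270 control cells with Mia and all 104 with Cnmd also had Snorc, and of the 18 cells without Snorc none had Mia or Cnmd. Of the 20 control cells without Chad, 16 had Snorc, 15 had Clec3a and 3 had Cilp. Cnmd was found in 30.3% of cells with Chad and 30.0% of cells without it.

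In the 44 CIA cells the strongest correlations were those of Chad: with Mia 0.78, with Snorc 0.76 and with Ucma 0.71. All 12 CIA cells with Chad also had Snorc and Ucma, 11 had Clec3a and 10 had Mia. Among the 32 CIA cells without Chad, 28 had Ucma, 15 had Snorc, 15 had Clec3a and 2 had Mia. With 12 cells carrying Chad, these correlations rest on few cells, and Cnmd, absent after thinning, had none.

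**Figure D3:**
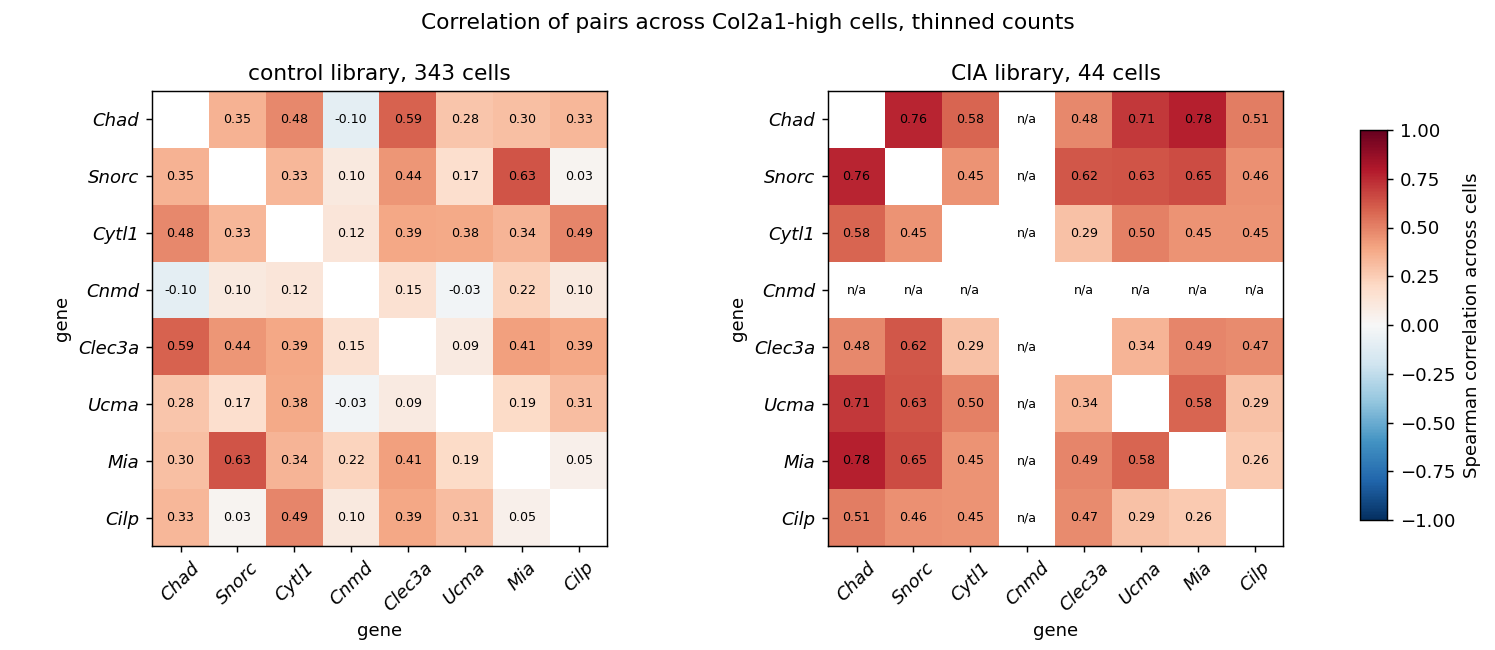
Spearman correlation of each pair of genes across Col2a1-high cells after thinning to 4000 UMIs, for 343 control cells and 44 CIA cells (n/a: Cnmd had no UMI left in the CIA cells). In the control library Snorc with Mia (0.63) and Chad with Clec3a (0.59) are the strongest, and the row of Cnmd stays at or below 0.22.

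Toward other genes, the members leaned in different directions across control cells. Snorc, Mia and Clec3a correlated with Col2a1 at 0.33, 0.32 and 0.29, while Cytl1, Cilp and Ucma stood at -0.04, -0.12 and -0.13. With Prg4, which encodes the lubricin of the joint surface, Cilp stood at 0.44, Ucma at 0.38 and Cytl1 at 0.22, and Snorc and Mia at 0.01 and 0.02. With Col1a1, the collagen of fibrous tissue and bone, Mia stood at -0.45, Snorc at -0.42, Cytl1 at -0.35, Chad at -0.34, Ucma at -0.33, Clec3a at -0.29, Cilp at -0.16 and Cnmd at -0.05. In the 44 CIA cells every member with a value correlated positively with Col2a1, from 0.29 for Cilp and 0.45 for Ucma to 0.79 for Snorc. Among 3404 other genes found in at least 10% of the control cells, the 3 most like each member were named. For Chad these were RGD1305645 (0.63), Cilp2, a relative of Cilp (0.58), and Cst3, a secreted cysteine protease inhibitor (0.55). For Snorc they were Mfge8, a secreted glycoprotein (0.71), Sparc, a collagen-binding matricellular protein (0.63), and LOC297568 (0.51). Mia had the same 3: Mfge8 (0.51), LOC297568 (0.51) and Sparc (0.50). For Clec3a they were Scrg1 (0.59), Sparc (0.48) and Agt, the angiotensin precursor (0.46). Cilp and Cytl1 also shared their 3: Cilp2 (0.62 and 0.46), RGD1305645 (0.58 and 0.55) and Gsn, an actin-severing protein (0.53 and 0.50). Ucma was most like RGD1305645 (0.52), Fth1, a ferritin chain (0.46), and Sod3, the extracellular superoxide dismutase (0.46). Cnmd was weakly like any gene, with Col9a2 and the Wnt antagonist Frzb both at 0.26 and the ribosomal gene Rps20 at 0.25.

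Levels summed over Col2a1-high cells were at least 4.68-fold lower in the CIA library for 7 of the 8 genes, and Ucma was 1.10-fold lower. Over all 4192 genes with at least 100 UMIs in both sums together, 5.56% were lower in the CIA library and 5.63% were higher by the same size rule, with a median log2 ratio of 0.27. That is 236 genes higher and 233 lower; TMM scaling moved the median to -0.07 and the split to 69 higher and 373 lower. Of the 8 members, 7 were lower and 0 higher with either scaling, with a median log2 ratio of -2.59 on total UMIs. Since the members were chosen with such results in view, the count describes them and supports nothing. The sums held 3858221 control UMIs and 520237 CIA UMIs.

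Among the membrane proteins, Snorc summed to 5548 CPM in the control library and 1186 in the CIA library, 4.68-fold lower (4.32 to 5.08). Cnmd summed to 243 and 28.8 CPM, 8.44-fold lower (5.09 to 15.1), but 1 CIA cell held 86.7% of its 15 CIA UMIs. Without the cell with most Cnmd in each library, 2 CIA UMIs were left and the fold was 57.1 (15.8 to 472). The direction of Cnmd was the same either way, and its size was not fixed by these cells.

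Among the matrix proteins, Chad summed to 10680 and 1580 CPM, 6.76-fold lower (6.31 to 7.25). Clec3a summed to 2997 and 561 CPM, 5.34-fold lower (4.75 to 6.02). Cilp summed to 1218 and 84.6 CPM, 14.4-fold lower (10.7 to 19.8), and 26.5-fold lower (17.5 to 42.3) without the top cell of each library, since 1 CIA cell held 50% of its UMIs. Chad RNA was uneven too, with 23.4% of its CIA UMIs in 1 cell.

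Among the small secreted proteins, Cytl1 summed to 1710 and 146 CPM, 11.7-fold lower (9.34 to 14.9), and 18.2-fold lower (13.7 to 24.8) without the top cells. Mia summed to 781 and 160 CPM, 4.90-fold lower (3.94 to 6.17). Ucma summed to 1605 and 1455 CPM, a ratio of 0.907 (0.840 to 0.978) that did not meet the size rule. On the log2 scale that is -0.14, and the value was -0.48 with TMM scaling, 0.21 with a Col2a1 limit of 2000 CPM and 0.14 in the chondrocyte-like cluster alone, so Ucma had no settled direction. Between Ucma and the other 7 genes the intervals of the ratio did not overlap. As means of per-cell CPM, in which each cell weighs the same, the CIA library was 5.90-fold lower for Chad, 3.89 for Snorc, 9.27 for Cytl1, 11.6 for Cnmd, 5.15 for Clec3a, 1.10 for Ucma, 4.33 for Mia and 12.0 for Cilp.

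Other cartilage genes from lists chosen with earlier results known gave smaller median differences. Of 17 measured genes of a cartilage matrix list, 6 were lower (Col2a1, Col9a2, Matn3, Chrdl2, Cilp2 and Scrg1), 1 was higher (Matn4), and the median log2 ratio was -0.46. Col2a1, which set the limit, was 2.15-fold lower (20140 against 9352 CPM), Col9a2, a chain of collagen IX, was 8.62-fold lower (5.86 to 13.2; 431 against 49.98 CPM), and Cilp2 was 3.05-fold lower. Col11a1 had a ratio of 0.973 (0.925 to 1.02), the link protein gene Hapln1 1.13 (1.08 to 1.19; 0.895 with TMM scaling) and Acan 1.47 (1.33 to 1.62). With TMM scaling Col9a3 was lower as well and Matn4 no longer met the size rule. Of 7 measured chondrogenic regulators, 2 were lower: Sox9, 2.66-fold, and Nfatc1, 2.89-fold; TMM scaling added Zbtb20. In a superficial zone list of 7 measured genes, Prg4 was 5.64-fold and Igfbp5 3.78-fold lower, and Thbs4 and Cd44 were higher with ratios of 5.32 and 3.61. Of 8 measured growth plate and hypertrophy genes, 4 were lower (Ibsp, Panx3, Bglap and Mef2c) and 1, the osteopontin gene Spp1, was higher; TMM scaling added Pth1r and Alpl to those lower. Of 9 measured fibrous matrix genes, 3 were higher (Col3a1, Col5a1 and Tnc) and 0 lower; with TMM scaling Col5a1 no longer met the rule and Postn and Sparc were lower.

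The Col2a1-high cells of the 2 libraries differed in Col1a1, so the members were set side by side within Col1a1 ranges chosen after the data were seen. At 10000 CPM of Col1a1 or more stood 62 of the 343 control cells, and so did 22 of the 44 from the CIA library. Below that limit, where 281 control and 22 CIA cells lay, Chad was in 277 and 11 cells and summed to 14380 and 3451 CPM, 4.17-fold lower in the CIA library (3.89 to 4.47). In the same range Snorc was 3.12-fold lower, Mia 3.08, Clec3a 6.46, Cytl1 7.25 and Cilp 10.3, and Cnmd was in 82 control and 0 CIA cells. At or above the limit Chad summed to 1617 and 3.54 CPM. A Chad UMI was in 46 of the 62 control but 1 of the 22 CIA cells, beside 42.9% and 0.374% of endothelial-like cells, and the control median of 87.7 CPM lay under the endothelial-like 99th percentile of 301. Above that control percentile stood 15 of the 62 control and 0 of the 22 CIA cells for Chad. By the control percentile of each gene, the counts were 4 and 0 for Cytl1, 30 and 2 for Mia and 49 and 7 for Snorc. They were 6 and 1 for Cilp, 22 and 2 for Cnmd and 44 and 12 for Clec3a (71.0% and 54.5%). For Ucma they were 27 and 13, a smaller share in the control library (43.5% and 59.1%). In summed CPM Snorc was 7.38-fold, Clec3a 2.23-fold and Cnmd 4.61-fold lower at or above the Col1a1 limit. The 7 genes other than Ucma were thus lower in the CIA library in both ranges.

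On total UMIs, Ucma was not lower in either range. Its CIA to control ratio was 1.15 (1.05 to 1.25) below the Col1a1 limit, where 266 of 281 control cells and all 22 CIA cells had a UMI, and 1.09 (0.935 to 1.27) at or above it. Both ratios lay above 1 although the ratio over all cells was 0.907. The Col1a1-rich range, in which Ucma was lower in both libraries (718 and 783 CPM against 1967 and 2253), held 22 of the 44 CIA cells and 62 of the 343 control cells.

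**Figure D4:**
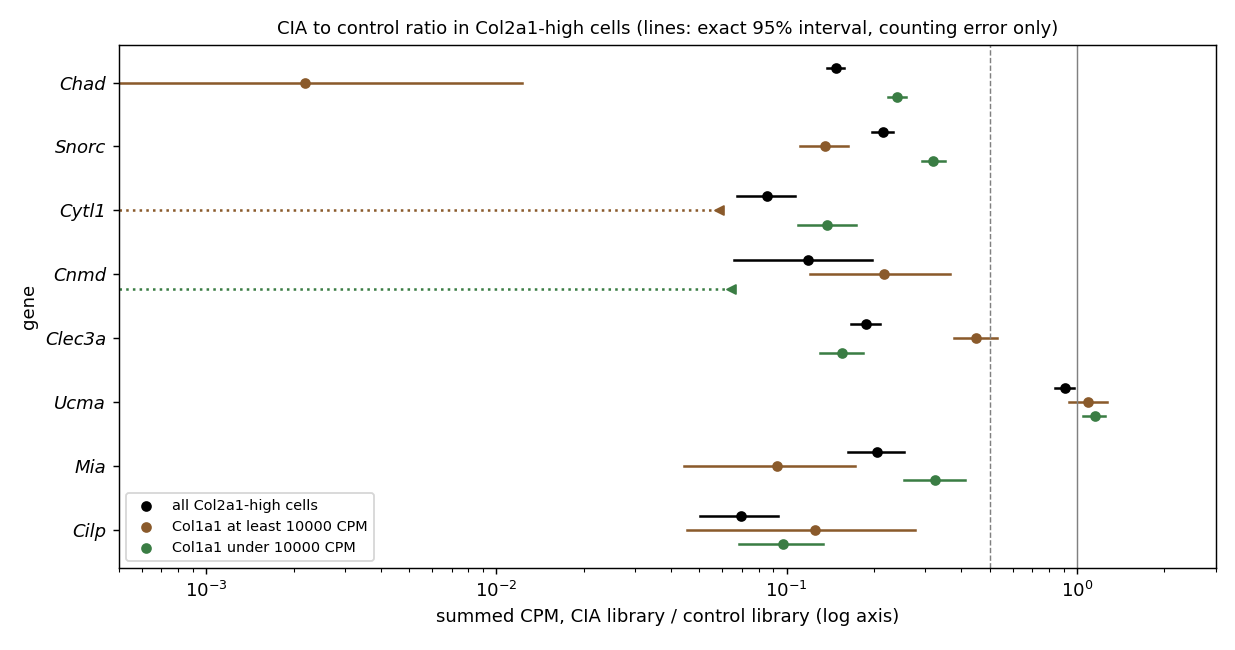
Ratio of summed CPM, CIA over control, for each gene in all Col2a1-high cells (black) and in those with Col1a1 at or above 10000 CPM (brown) or below it (green), on a log axis; lines are exact 95% intervals, arrowheads are upper bounds where the CIA cells had no UMI, and the dashed line marks 0.5. The 3 points of Ucma lie between 0.907 and 1.15, and every point of the other 7 genes lies left of the dashed line.

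A few CIA cells kept the control pattern for part of the set. Chad was at or above 1000 CPM in 275 control cells and 10 CIA cells. Chad itself still differed there, with a median of 14300 CPM in the control and 7780 in the CIA cells. All 10 CIA cells had Snorc, Clec3a and Ucma, and 9 had Mia. Their median Snorc was 5380 CPM (2620 to 11900) beside 7290 in the 275 control cells, and their median Mia was 622 beside 889. Their median Clec3a was 824 CPM (218 to 4900) beside 3620, and Cytl1 was 106 beside 1120. The 5 cells with Cytl1, 4 with Cilp and 0 with Cnmd compare with 79.3%, 64.4% and 29.8% of the control cells. Median Ucma was 3250 CPM (1090 to 9440) in the 10 CIA cells and 1860 in the control cells. In the cells below that Chad level, 68 control and 34 CIA, Ucma was in 57.4% (44.8 to 69.3) and 88.2% (72.5 to 96.7), and Snorc in 85.3% (74.6 to 92.7) and 50% (32.4 to 67.6). The 2 genes therefore stood in opposite order between the libraries in the cells with little Chad. These 2 sets of cells also differed otherwise. Median Col1a1 was 57100 CPM in the control and 22200 in the CIA cells, and median Col2a1 12500 and 3250.

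Outside the Col2a1-high cells of the control library, 6 of the 8 genes had no large cluster above 3 times the median one. Of these 6, Cnmd had 0 UMIs in 1 cluster and the other 5 were found in every one. Free RNA, released from broken cells and caught in every droplet, gives all cell types a like low share of a gene, and cells of other types were read as that background. Over 10 clusters of at least 100 cells, the chondrocyte-like cluster left out, Chad ran from 34.7 to 89.0 CPM with a median of 40.4. Without the few cells that had 10 or more UMIs of the gene, Chad ran from 34.7 to 42.2 CPM. Snorc ran from 9.18 to 19.5 CPM (9.18 to 12.1 without such cells), Clec3a from 13.5 to 28.3 (13.5 to 23.4), Cytl1 from 6.73 to 22.2 (6.73 to 14.8), Mia from 0.360 to 3.14 and Cnmd from 0 to 1.54. Col2a1 ran from 121 to 166 CPM. Cells at or above 1000 CPM of Col2a1 had been left out by definition, so its evenness was partly set in advance. Most UMIs of Chad outside Col2a1-high cells were not spread evenly: 33 cells with 10 or more UMIs held 59.0% of them, and 26 of these cells were in the chondrocyte-like cluster.

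Ucma and Cilp were uneven. Ucma reached 136 CPM in a lining or superficial zone-like cluster led by Gfpt2, Has1 and Htra4 and 69.4 CPM in a proliferating-like cluster led by Cdk1, beside a median of 7.73 over the 10 clusters. In the former, 139 of 326 control cells (42.6%, 37.2 to 48.2) had a Ucma UMI, and 16 cells with 10 or more UMIs held 51.8% of them. Without these 16 cells the level was 69.6 CPM, still above the other clusters. The same 2 clusters stood out in the CIA library, with 54.2 and 67.3 CPM beside a median of 1.81, and there they held 32.1% and 22% of all Ucma UMIs of the library. Col2a1 was also highest in these 2 CIA clusters, at 13.5 and 28.3 CPM beside a median of 6.21. Snorc, Clec3a and Mia were highest in that proliferating-like cluster too, at 1.52, 1.74 and 0.434 CPM beside medians of 0.485, 0.436 and 0.125, but from 14, 16 and 4 UMIs. Chad and Cytl1 were highest in the lining-like one, from 17 and 7 UMIs, and Cilp in neither. Cytl1 stood at 0.418 CPM there beside 0.415 in the next cluster, so these ranks rest on few UMIs. In the CIA proliferating-like cluster 150 of 507 cells (29.6%, 25.6 to 33.8) had a Ucma UMI, and in a second proliferating-like cluster, led by Hist1h1b, 10 of 289 (3.46%). Cilp reached 106 CPM in the Clic5-led lining-like cluster of the control library, where 3 cells held 75% of its UMIs, and 26.8 CPM without them. In the CIA library 37.2% of all Cilp UMIs, 80 in number, lay in an unnamed cluster led by Sectm1b and Cxcl6, at 4.13 CPM. The genes that lead these clusters are given only to identify them and were picked after their values were seen.

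**Figure D5:**
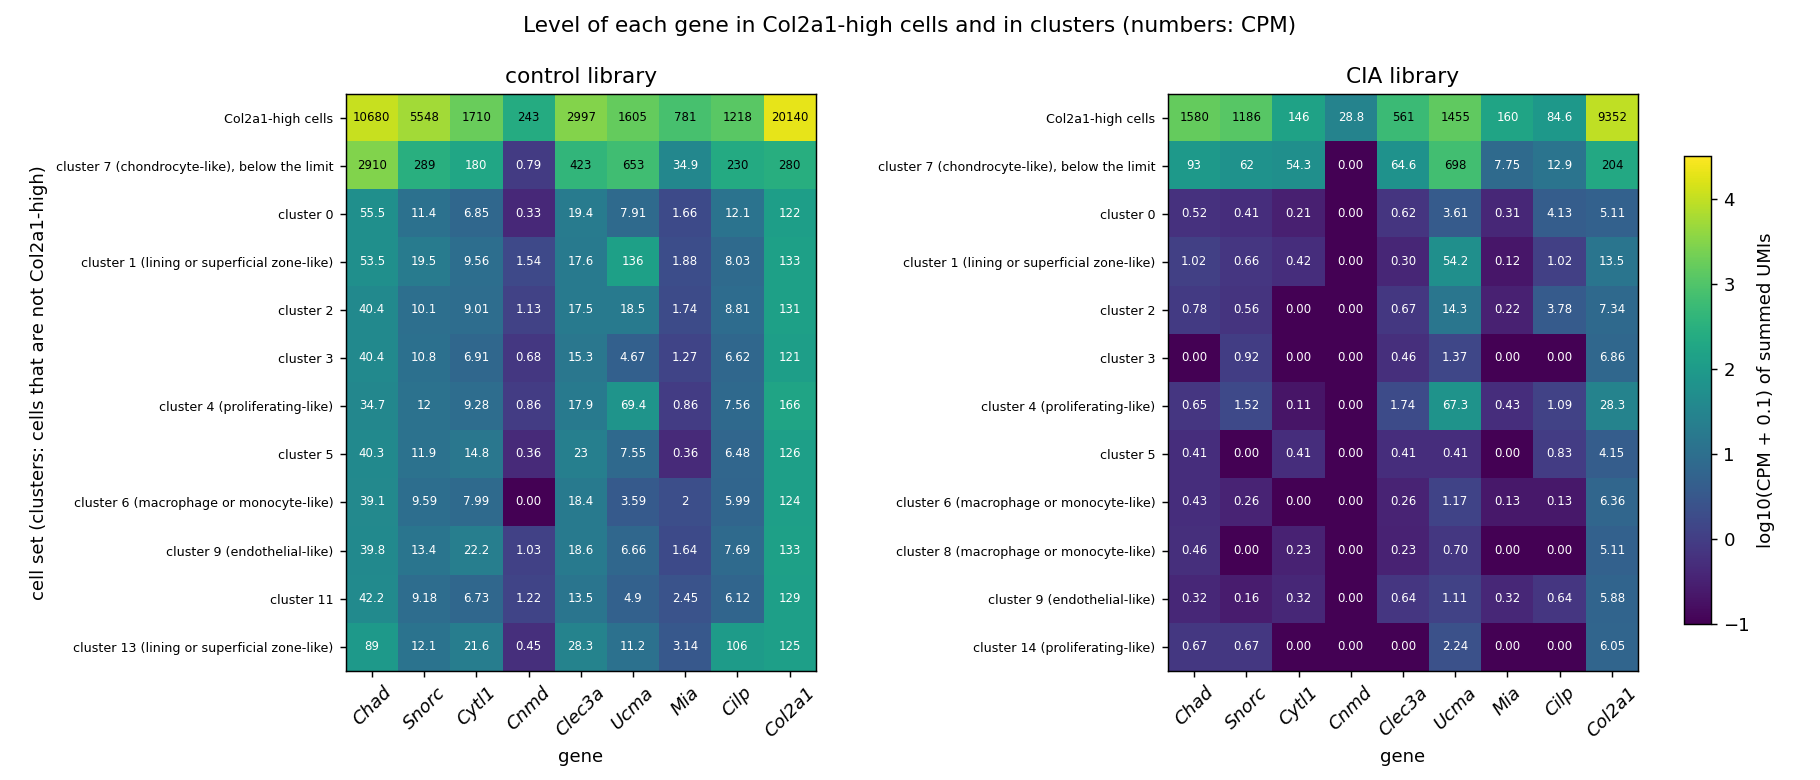
Summed level in UMIs per 1000000 of the 8 genes and Col2a1 in Col2a1-high cells, in chondrocyte-like cells below the Col2a1 limit and in clusters of at least 100 cells without Col2a1-high cells; colour is log10(CPM + 0.1). In the control library the columns of Chad, Snorc and Clec3a vary little below the second row, while in both libraries Ucma stands out in clusters 1 and 4 (136 and 69.4 CPM in control, 54.2 and 67.3 in CIA).

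Levels in endothelial-like and macrophage-like cells also differed between the libraries, and not by 1 factor for all genes. In endothelial-like cells Chad stood at 39.8 CPM in the control library and 0.318 in the CIA library, 125-fold apart (34.4 to 1040, from 388 and 2 UMIs). Col2a1 was 22.7-fold apart there (16.4 to 32.4), Clec3a 29.2-fold (11.2 to 108), Cilp 12.1-fold (4.53 to 45.5) and Ucma 5.99-fold (2.75 to 15.5). The CIA values of the members rest on 2 UMIs of Chad, 4 of Clec3a, 4 of Cilp and 7 of Ucma. In macrophage-like cells Chad was 113-fold apart (62.6 to 223), Col2a1 20.1-fold (16.7 to 24.3), Clec3a 73.1-fold (33.2 to 190), Cilp 79.2-fold (24.3 to 409) and Ucma 7.0-fold (3.88 to 12.5). In endothelial-like cells the interval of Ucma overlapped those of Clec3a and Cilp. By point value Ucma was nearest to the CIA level in both cell types among these 4 members. Mia, not among them, was nearer in endothelial-like cells, at 5.16-fold (1.21 to 46.2, from 16 and 2 UMIs). In macrophage-like cells Mia was 30.4-fold apart (7.84 to 172). Snorc and Cytl1 were 84.5-fold and 69.9-fold apart in endothelial-like cells, and Cnmd had 0 CIA UMIs there. The interval of Chad lay above that of Col2a1 in both cell types. Per 100 Col2a1 UMIs, control Col2a1-high cells had 53.1 of Chad (52.4 to 53.7), endothelial-like cells 29.8 (26.5 to 33.4) and macrophage-like cells 39.8 (32.7 to 48.3). For Snorc the values were 27.6 (27.1 to 28.0), 10.1 (8.34 to 12.0) and 13.7 (10 to 18.4), and for Mia 3.88 (3.74 to 4.02), 1.23 (0.700 to 2.00) and 2.69 (1.28 to 5.0). For Ucma they were 7.97 (7.77 to 8.18), 4.99 (3.83 to 6.41) and 6.18 (3.87 to 9.42), and for Cnmd 1.21 (1.13 to 1.29), 0.768 (0.367 to 1.42) and 0.538 (0.0649 to 1.96). Clec3a had overlapping intervals, with 14.9 (14.6 to 15.2), 13.9 (11.8 to 16.3) and 15.1 (11.2 to 20), and Cilp stood at 6.05, 5.76 and 6.99. Cytl1 was relatively more frequent in endothelial-like cells, 16.7 (14.4 to 19.3) against 8.49 (8.28 to 8.71), and 5 endothelial-like cells with 10 or more UMIs held 49.8% of its UMIs there. Single cells weighed on other values. Without 1 cell with 10 or more UMIs, Snorc fell from 13.4 to 10.7 CPM in endothelial-like and from 17.0 to 8.68 CPM in macrophage-like cells. In macrophage-like cells Chad fell from 49.3 to 39.4 CPM and Ucma from 7.66 to 4.01 CPM in the same way. Chad, Snorc, Ucma and Mia were thus rarer beside Col2a1 in endothelial-like cells than in the Col2a1-high cells, the intervals of Clec3a, Cilp and Cnmd overlapped, and the source of these differences was not tested.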

How the data were processed

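Single-cell libraries (Chromium 3' kit, version 2, per the labels' protocols) came from control and CIA cartilage, 1 library each. The authors deposited raw UMI counts per gene and cell with a cell list for each library, on genome build mRatBN7.2 per the submitters' processing notes; for the aligner and the cell calling, no source used here names a tool. Cells under 200 genes or above 20% mitochondrial UMIs were dropped, and doublets called by Scrublet (scanpy 1.11.5) were removed, 62 in control and 166 in CIA. Symbols not listed for both libraries (1579 in control, 1103 in CIA) were left out of comparisons between them. CPM used all UMIs of a cell or sum.

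Shares carry exact Clopper-Pearson 95% intervals and ratios exact conditional ones. A difference met the size rule at 2-fold or more with the interval wholly beyond 1.5-fold and 100 or more UMIs; the rule was tested on simulated data. Leiden clustering without the 8 genes (2000 variable genes, 30 principal components, 15 neighbours, resolution 0.5) gave 17 clusters. A cluster was named from marker lists when at least 3 markers and 50% of a list were each found in 50% or more of its cells and that list had the most markers, at least 1, among its 10 top genes, a rule set after the clusters were seen. The members and lists were chosen with earlier results of these data known. Genes named beside the members are those of the lists and, per member, the 3 with the highest Spearman correlation. Alternatives are given in the closing section; TMM factors came from edgeR 4.0.16.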

Additional observations from a re-analysis of the deposited data

How the results depend on the processing

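The count of 7 members lower and 0 higher in the CIA library was the same under all 12 alternatives that gave one: other Col2a1 limits, doublet calls kept, a mitochondrial limit of 10%, TMM factors, a total without the 50 most abundant genes, no UMI minimum, leaving out the top cell, and, chosen after seeing the data, leaving out macrophage-marker cells, using the chondrocyte-like cluster only and the 2 Col1a1 ranges. The size of the differences moved more than the counts: among log2 ratios of single members under alternatives, 45 moved beyond the counting interval and 49 did not, and among shares of cells with a UMI, 38 did and 106 did not. The share of control cells with 6 or more members, 71.4%, became 60.9% with a Col2a1 limit of 500 CPM, 60.3% after thinning, 25.8% where Col1a1 was at or above 10000 CPM and 81.5% below it. The CIA share, 13.6%, became 0 where Col1a1 was at or above 10000 CPM, and the number of members found in 50% or more of CIA cells fell from 3 to 1 with a Col2a1 limit of 500 CPM. These changes come with other sets of cells or fewer UMIs per cell. Over all genes, the counts higher and lower in the CIA library were 149 and 279 without the 50 most abundant genes, 415 and 280 of 14535 with no UMI minimum, 133 and 205 in the chondrocyte-like cluster only, 59 and 125 at or above the Col1a1 limit and 309 and 202 below it. Ucma and Cilp in the control library and Ucma in the CIA library exceeded 3 times the median cluster in the 4 settings run, counting genes with 100 or more UMIs in their highest cluster. With 44 CIA cells, shares there carry intervals as wide as that of Clec3a (43.2 to 73.7%), and the number of UMIs does not fix the size of the differences of Cnmd, Cilp and Cytl1. No paired analysis was possible because each group has 1 library.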
